A study of Mus musculus with 18 samples.

Results

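The 18 arrays of a mouse hypothalamus series fell into 2 separate sets by their signal for Wfs1, and these sets are compared here across the other genes. The sets were chosen by the measured values of the 1 Wfs1 probeset (10529605) in the deposited table: 10 of the 18 arrays lay below 8.2 on the log2 scale and 8 of the 18 lay above it. On this scale 1 unit is a factor of 2 in signal. The sets are not the study's groups, and no genotype label was used to form them.

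The study measured whole hypothalamus from wild-type mice and from mice mutant for Wfs1. All arrays share 1 strain background, which the series text calls 129S6 and the sample labels call 129SV. No treatment, age or sex is given in the labels used here, nor the kind of Wfs1 mutation or whether an array held 1 animal or a pool. Each array carries its genotype in 2 places, the ending of its title (ko or wt) and its genotype field (WFS1 KO or WFS1 WT), and these differ on 9 arrays. An array is called below by both labels and a number given in accession order, so that ko/WT 4 is number 4 of the arrays with the title ending ko and the genotype field WT.

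Neither label followed the Wfs1 signal. Of the 10 low arrays, 4 had the title ending ko and 6 the ending wt, and 5 had the genotype field KO and 5 the field WT. Of the 8 high arrays, 6 had the ending ko and 2 the ending wt, and the genotype field gave 4 KO and 4 WT. Where both labels were KO, 2 arrays were low and 3 high. Where both were WT, 3 were low and 1 high. The low arrays are therefore not called mutant here, and the genotype behind either set cannot be read from the labels. The 2 labels also differ in their pattern. The genotype field alternates between KO and WT from each array to the next in series order. The title ending follows the number printed before it in the title, with every ko number below every wt number. Which label is right, if either, was not tested. The labels do not say that arrays came from separate animals, so each p-value below measures the spread between these arrays, part of which may be technical.

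Wolframin, the product of Wfs1, is a membrane glycoprotein of the endoplasmic reticulum. It takes part in calcium handling and in the control of the unfolded protein response, and its loss causes Wolfram syndrome, with diabetes insipidus, diabetes mellitus, optic atrophy and deafness. In the brain it is made by neurons, among them hypothalamic vasopressin neurons. C4b encodes complement component C4, which is cleaved by the C1 protease complex and then forms part of the C3 convertase of the classical and lectin pathways.

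The 250 bases before the start of Wfs1 are shown because the sets rest on this gene's signal. They lie on the minus strand at chr5:36988983-36989232 of GRCm38.p6 and come from RefSeq. Capitals mark matches to the GC box (GGGCGG) and the CCAAT box (CCAAT) on either strand.

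Wfs1: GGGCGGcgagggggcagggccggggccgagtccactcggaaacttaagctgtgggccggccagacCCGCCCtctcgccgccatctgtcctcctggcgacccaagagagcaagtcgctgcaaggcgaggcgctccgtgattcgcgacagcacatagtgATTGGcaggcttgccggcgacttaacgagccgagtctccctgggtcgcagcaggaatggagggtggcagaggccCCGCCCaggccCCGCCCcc

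The window held 4 GC boxes, a motif found in 32.7% of 32851 promoter windows of the same length. It held 1 CCAAT box, found in 33.8% of the windows. The unfolded protein response element (TGACGTGG), found in 0.563% of the windows, and the ER stress response element, found in 0.113%, had 0 matches in it. The 2 kinds of marked match do not overlap, and a match describes letters only.

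The deposited log2 Wfs1 signal ran from 7.86 to 8.07 on the 10 low arrays, with a median of 8.0 and a mean of 7.99 ± 0.074 (SD, n = 10). It ran from 8.36 to 8.72 on the 8 high arrays, with a median of 8.50 and a mean of 8.52 ± 0.137 (SD, n = 8). The array just below the threshold of 8.2 was ko/WT 3 at 8.07, and the arrays just above it began with ko/WT 5 at 8.36, which left a gap of 0.29. The difference of the mean log2 signals, low minus high, was -0.54, a 1.45-fold higher signal on the high arrays. These values formed the sets, so they are given without a test. Over all arrays the mean Wfs1 signal lay at percentile 62.3 of the genes measured, and signals are compared here between arrays, not between genes.

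C4b was higher on every low array than on any high array. Its log2 signal ran from 8.36 to 8.61 on the low arrays, with a median of 8.47 and a mean of 8.48 ± 0.082 (SD, n = 10). On the high arrays it ran from 7.64 to 8.19, with a median of 7.86 and a mean of 7.85 ± 0.183 (SD, n = 8). The sets did not overlap: the lowest low array was wt/WT 2 at 8.36 and the highest high array was ko/KO 3 at 8.19. The mean difference, low minus high, was 0.62 with a standard error of 0.063, which is 1.54-fold. This comparison was proposed with the C4b result already known, so its values are a description and its p-value is not independent evidence.

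The same order of C4b held inside each pair of labels. With both labels KO, the 2 low arrays lay between 8.39 and 8.61 and the 3 high arrays between 7.64 and 8.19. With the title ending ko and the field WT, the 2 low arrays lay between 8.42 and 8.53 and the 3 high arrays between 7.66 and 7.88. With the ending wt and the field KO, the 3 low arrays lay between 8.41 and 8.56 and the 1 high array at 8.01. With both labels WT, the 3 low arrays lay between 8.36 and 8.54 and the 1 high array at 7.74. The difference ranged from 0.47 to 0.71 over these 4 label groups. The lack of overlap in each of them follows from that over all arrays and adds no evidence.

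Inside each set, no relation of C4b to the Wfs1 signal was detected. Over the 10 low arrays Pearson's r was 0.021 (permutation p = 0.955, adjusted 0.955) and Spearman's rho was 0.036 (permutation p = 0.926, adjusted 0.926). Over the 8 high arrays r was -0.149 (exact permutation p = 0.727, adjusted 0.955) and rho was -0.084 (exact permutation p = 0.851, adjusted 0.926). Without the 2 arrays farthest from the median Wfs1 signal, r was -0.127 in the low set and 0.195 in the high set. These tests were two-sided and adjusted over the 2 sets, and no r over all 18 arrays is given because the sets are separate clusters. The division by Wfs1 leaves a narrow range of its signal inside each set. With 10 and 8 arrays, the tests could therefore have missed a relation.

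**Figure D1:**
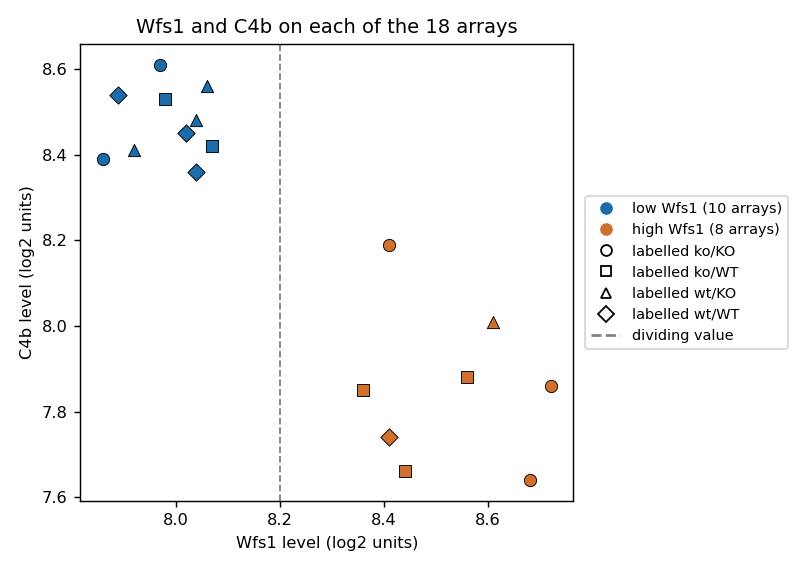
Deposited log2 signal of Wfs1 (horizontal) and C4b (vertical) on the 18 arrays, 1 point per array, coloured by set and shaped by the 2 genotype labels, with the threshold of 8.2 as a dashed line. The 10 low arrays lie at a C4b signal of 8.36 or more and the 8 high arrays at 8.19 or less. The permutation tests detected no slope within either set, but each set spans a narrow range of Wfs1 signal.

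Across 19936 genes other than Wfs1, limma called 1 gene, C4b, at a Benjamini-Hochberg adjusted p under 0.05, which is 0.00502% of the genes tested. The second lowest adjusted p was 0.309, for Kctd21. Before adjustment, 865 genes had a p under 0.05: 1.6% of the genes tested with a higher mean on the low arrays, and 2.74% (546 genes) with a lower one. The mean was higher on the low arrays for 9670 genes (48.5%) and lower for 10266 (51.5%), and the median difference over all genes was -0.002. These shares of all genes are the background for every list count below. The values of the 2 sets did not overlap for 3 genes (0.015%): C4b, Cmtm5 and Wbp1. No gene differed by more than C4b in size, and 33 differed by more than 0.3 in either direction, against a median standard error of 0.062.

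**Figure D2:**
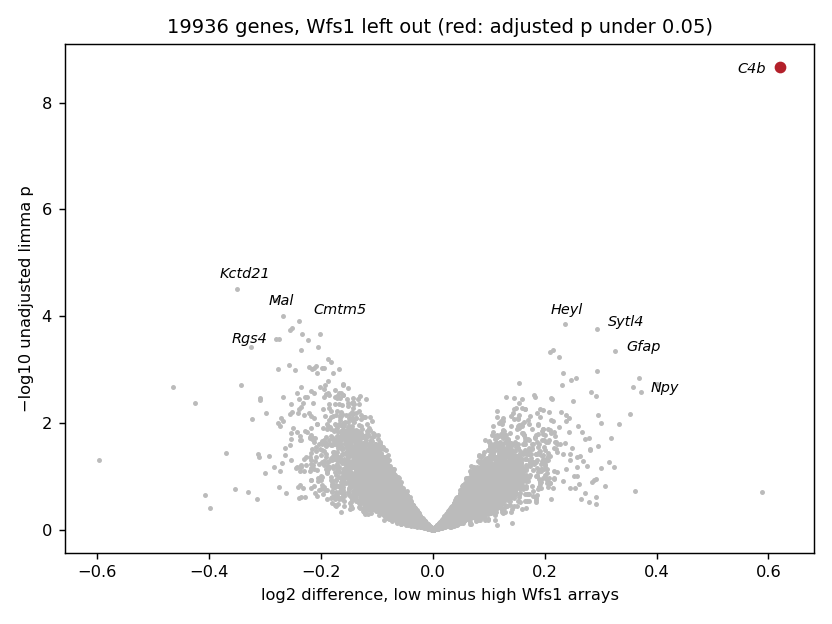
Difference in mean log2 signal, low minus high Wfs1 arrays (horizontal), and -log10 of the unadjusted limma p (vertical) for 19936 genes. C4b, at 0.62 and in red as the gene called, stands apart from the other genes.

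Array-wide measures overlapped between the sets. The median signal of an array ran from 7.10 to 7.19 on the low arrays and from 7.13 to 7.18 on the high arrays, and pairs of arrays correlated at 0.975 to 0.991 over all probesets. No 2 arrays shared more than 2.99% of their values, so none is a copy of another. Markers of the hypothalamus were measured on all arrays. Vasopressin (Avp) lay between 9.44 and 10.89 and oxytocin (Oxt) between 10.02 and 11.15. Pmch, the melanin-concentrating hormone precursor, lay between 11.36 and 12.10, and Hcrt between 9.11 and 10.06. Other chosen markers lay nearer the middle of all genes by mean signal: Otp at percentile 63.4, Nkx2-1 at 50.2 and Pomc at 48.8. Agrp, also chosen, had no value among the genes tested. The array ko/WT 4, in the high set, had an Xist signal of 5.93 where every other array had 10.31 or more. The Y-linked genes Uty, Kdm5d and Eif2s3y, at 4.4, 5.42 and 3.59 on ko/WT 4, lay within the ranges of the other arrays. Zfy2, also Y-linked, was highest on ko/WT 4 at 4.08, with the low array ko/KO 5 next at 4.07. The array wt/WT 3, in the low set, had a Ttr signal of 12.80, and the other arrays had between 8.01 and 10.62. Without ko/WT 4 and wt/WT 3, C4b differed by 0.59 and remained the 1 gene called.

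The complement cascade was followed through 41 measured genes. Of these, 25 (61.0%) had a higher mean on the low arrays, against 48.5% of all genes, and the median difference was 0.0068. Without ko/WT 4 and wt/WT 3 the list split 20 higher to 21 lower, with a median of -0.0054. C4b was the 1 member that passed the adjusted test. Before adjustment, C4b and C4a were higher and Vtn and Cfp lower at a p under 0.05. The upstream recognition subunits of C1 differed by 0.01 (C1qa), 0.06 (C1qb) and 0.04 (C1qc), and the C1 protease genes by -0.14 (C1ra) and 0.07 (C1s1). C2, which joins C4 in the convertase, differed by -0.02, and Cfb, its counterpart in the alternative pathway, by 0.12. The complement regulator Serping1, which inhibits C1, differed by -0.01. Leaving out 1 array at a time gave 2 to 4 members higher at an unadjusted p under 0.05.

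C4a is a near-identical copy of C4b at the same locus, so how much of either signal came from the RNA of the other gene cannot be told apart in these values. The C4a signal ran from 6.93 to 7.41 on the low arrays, with a median of 7.23, and from 6.74 to 7.31 on the high arrays, with a median of 6.99. The sets overlapped through ko/KO 2, the highest of the high arrays at 7.31, and ko/KO 5, the lowest of the low arrays at 6.93. The difference was 0.26 with a standard error of 0.070 and a limma adjusted p of 0.741. The 20 genes that flank C4b, 10 on each side in RefSeq order, had a median difference of 0.0045, with 11 higher and 9 lower. C4a was the 1 of them with an unadjusted p under 0.05, while Tnxb differed by -0.07, Atf6b by -0.09 and Cyp21a1 by -0.04. Of the 20 genes that flank Wfs1, 10 were higher and 10 lower, with a median of 0.0031. Tada2b, at 0.11, was the 1 of those with an unadjusted p under 0.05.

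Of the genes induced in reactive glia and in the acute phase, 0 passed the adjusted test. Of 24 genes, 18 (75.0%) had a higher mean, against 48.5% of all genes, and 6 a lower one. The median difference was 0.044 (0.019 without the dimmest 40% of all genes). At an unadjusted p under 0.05, 3 were higher (Gfap, Serpina3n and A2m), where 1.6% of all genes were. Gfap, the intermediate filament protein of astrocytes, ran from 8.91 to 9.35 on the low arrays, with a median of 9.12, and from 8.55 to 9.14 on the high arrays, with a median of 8.78. The high arrays wt/KO 3 and ko/KO 1 reached into the range of the low ones. The Gfap difference was 0.33 with a standard error of 0.079 and a limma adjusted p of 0.465. Serpina3n, a protease inhibitor raised in reactive astrocytes, ran from 11.04 to 11.50 on the low arrays, with a median of 11.29, and from 10.92 to 11.32 on the high arrays, with a median of 11.12. It differed by 0.19 (limma adjusted p = 0.947).

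The other astrocyte genes were split. Of 16 astrocyte markers, 7 were higher and 9 lower on the low arrays, with a median of -0.012. At an unadjusted p under 0.05, Gfap and Agt (angiotensinogen) were higher and Aldh1l1 and Gja1 (connexin 43) lower. Microglial markers numbered 17, of which 11 were higher and 6 lower, with a median of 0.0092 and 0 at an unadjusted p under 0.05. The mean microglial level of an array overlapped between the sets, at 7.52 to 7.69 on the low arrays and 7.55 to 7.66 on the high arrays. Antigen presentation genes split 8 higher to 7 lower of 15, with a median of 0.036 and 0 at an unadjusted p under 0.05. Interferon-response genes split 10 to 11 of 21, with a median of -0.0065 that turned to 0.0013 with centred arrays, and Rsad2 (viperin), at 0.22, was the 1 member with an unadjusted p under 0.05.

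**Figure D3:**
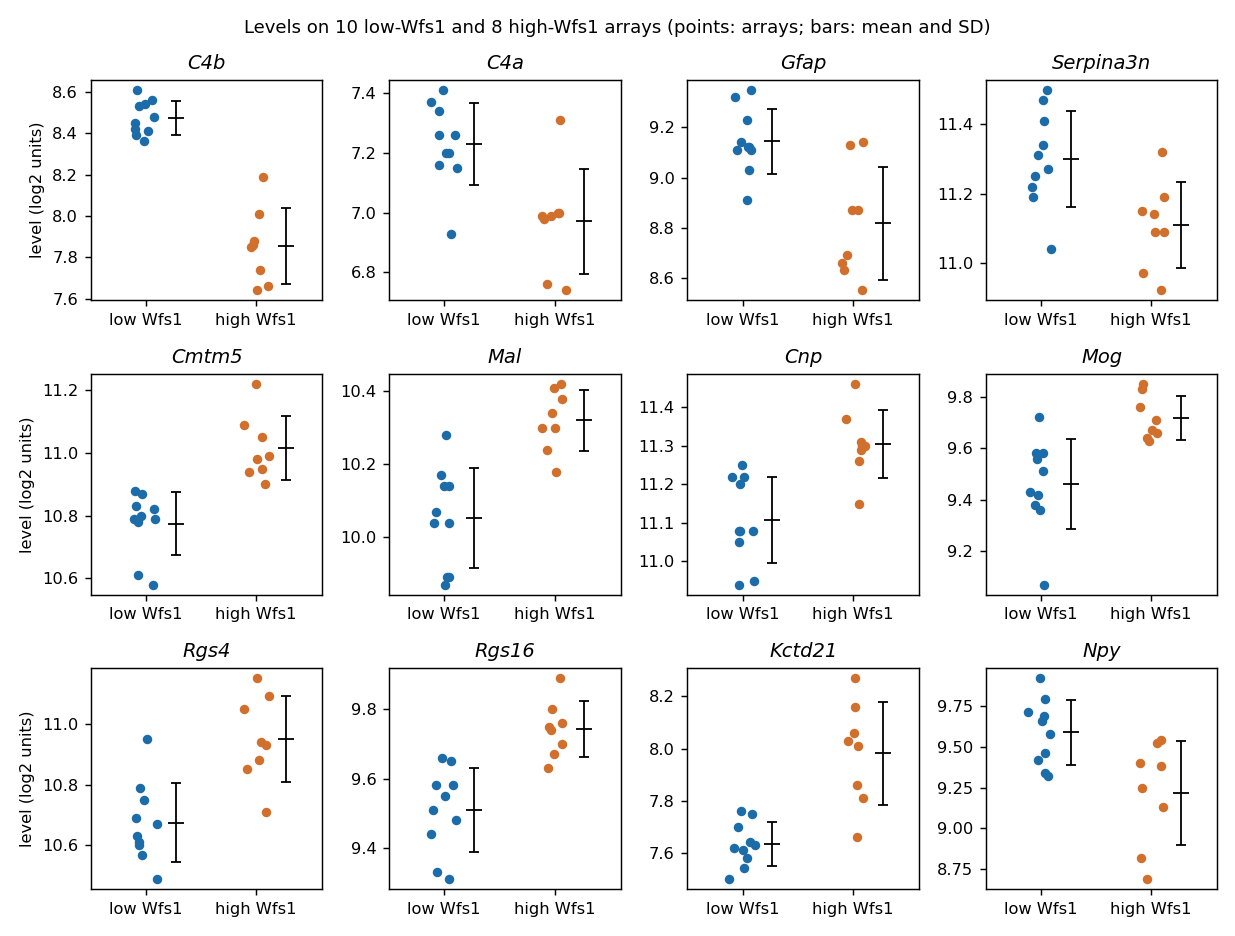
Deposited log2 signal of 12 genes on the 10 low and 8 high Wfs1 arrays, 1 point per array, with bars for the mean and SD of each set. C4b and Cmtm5 do not overlap between the sets in these panels, and the other 10 genes do.

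Among the lists of cell type markers, genes of myelin and oligodendrocytes had the lowest median difference. Of 18 members, 16 (88.9%) had a lower mean on the low arrays, against 51.5% of all genes, and the median difference was -0.16. No member passed the adjusted test, and 9 were lower at an unadjusted p under 0.05, where 2.74% of all genes were. Those 9 were Ugt8a and Fa2h, enzymes of myelin lipid synthesis; Mog, Mag, Mbp, Cnp and Cldn11, proteins of the myelin sheath; Opalin, an oligodendrocyte membrane protein; and Trf, which encodes transferrin. In bulk tissue, fewer cells of a type and less RNA per cell cannot be told apart.

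Cnp, a phosphodiesterase of the myelin sheath, ran from 10.94 to 11.25 on the low arrays, with a median of 11.08. On the high arrays it ran from 11.15 to 11.46, with a median of 11.30. The difference was -0.20 with a standard error of 0.052 and a limma adjusted p of 0.611. Mog, a glycoprotein of the outer myelin surface, ran from 9.07 to 9.72 on the low arrays, with a median of 9.47, and from 9.63 to 9.85 on the high arrays, with a median of 9.69. The sets overlapped for both genes: the high array ko/KO 2 lay inside the low range of Cnp, and the low array wt/KO 4, at 9.72, reached into the high range of Mog. Pdgfra and Cspg4, markers of oligodendrocyte precursors, differed by -0.02 and 0.00025, and Sox10, present at all stages, by -0.03. The mean level over the list ran from 9.11 to 9.42 on the low arrays and from 9.27 to 9.56 on the high arrays. Leaving out 1 array at a time gave 9 to 12 members lower at an unadjusted p under 0.05, and leaving out ko/WT 4 and wt/WT 3 together gave 7.

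Mal and Cmtm5, both membrane proteins abundant in oligodendrocytes, were among the 12 genes lower on the low arrays with the smallest p, and neither is on the myelin list. Mal ran from 9.87 to 10.28 on the low arrays, with a median of 10.06, and from 10.18 to 10.42 on the high arrays, with a median of 10.32, a difference of -0.27 (limma adjusted p = 0.394). Cmtm5 ran from 10.58 to 10.88 on the low arrays, with a median of 10.80, and from 10.90 to 11.22 on the high arrays, with a median of 10.99. The difference was -0.24 (limma adjusted p = 0.394). The gap between the Cmtm5 values of the sets was narrow. Wbp1, the other gene lower on every low array and named for that after its values were seen, ran from 8.80 to 9.13 against 9.14 to 9.31 and differed by -0.16.

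Thalamic genes mark a neighbouring brain region. Of 18, 15 (83.3%) had a lower mean on the low arrays, against 51.5% of all genes, with a median of -0.11. None of the 18 passed the adjusted test, and 7 were lower at an unadjusted p under 0.05, where 2.74% of all genes were. Those 7 were Ramp3, Plekhg1, Zic1, Lef1, Zmat4, Ntng1 and Rora. The thalamic list mean ran from 9.49 to 9.76 on the low arrays and from 9.60 to 9.86 on the high arrays, so the sets overlapped, and the part of such tissue in the other differences was not tested. Its count at an unadjusted p under 0.05 fell to 3 without ko/WT 2 and rose to 9 without ko/KO 2. Plekhg1 ran from 9.34 to 9.85 on the low arrays, with a median of 9.57, and from 9.59 to 10.08 on the high arrays, with a median of 9.91. The sets overlapped for this gene too.

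Hypothalamic regional transcription factors lay on the other side. Of 25, 23 (92.0%) had a higher mean on the low arrays, against 48.5% of all genes. The median difference was 0.060, and 0 passed the adjusted test. Nr5a1, a marker of the ventromedial nucleus, Nkx2-1, which patterns the ventral hypothalamus, Bsx and Foxa2 were higher at an unadjusted p under 0.05. Of all genes, 1.6% were higher at that level. The median was 0.038 with the title ending as a covariate. The count at an unadjusted p under 0.05 was 2 without ko/WT 5 and 5 without ko/KO 2. The mean level over the list ran from 7.55 to 7.72 on the low arrays and from 7.47 to 7.64 on the high arrays, so the sets overlapped. The medians of these levels were close, at 7.62 and 7.60. The level lay farthest below its mean over all arrays on ko/WT 5 (-0.142) and ko/WT 4 (-0.095). It lay farthest above on wt/KO 4 (0.111) and wt/WT 2 (0.097). Without ko/WT 4 and wt/WT 3 the list split 20 higher to 5 lower, with a median of 0.049. Cortical and hippocampal markers split 9 higher to 5 lower of 14, with a median of 0.014, and striatal markers 9 to 3 of 12, with a median of 0.036. Among these 2 lists, Rasgrf2, a cortical and hippocampal marker, was the 1 with an unadjusted p under 0.05, and it was higher.

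**Figure D4:**
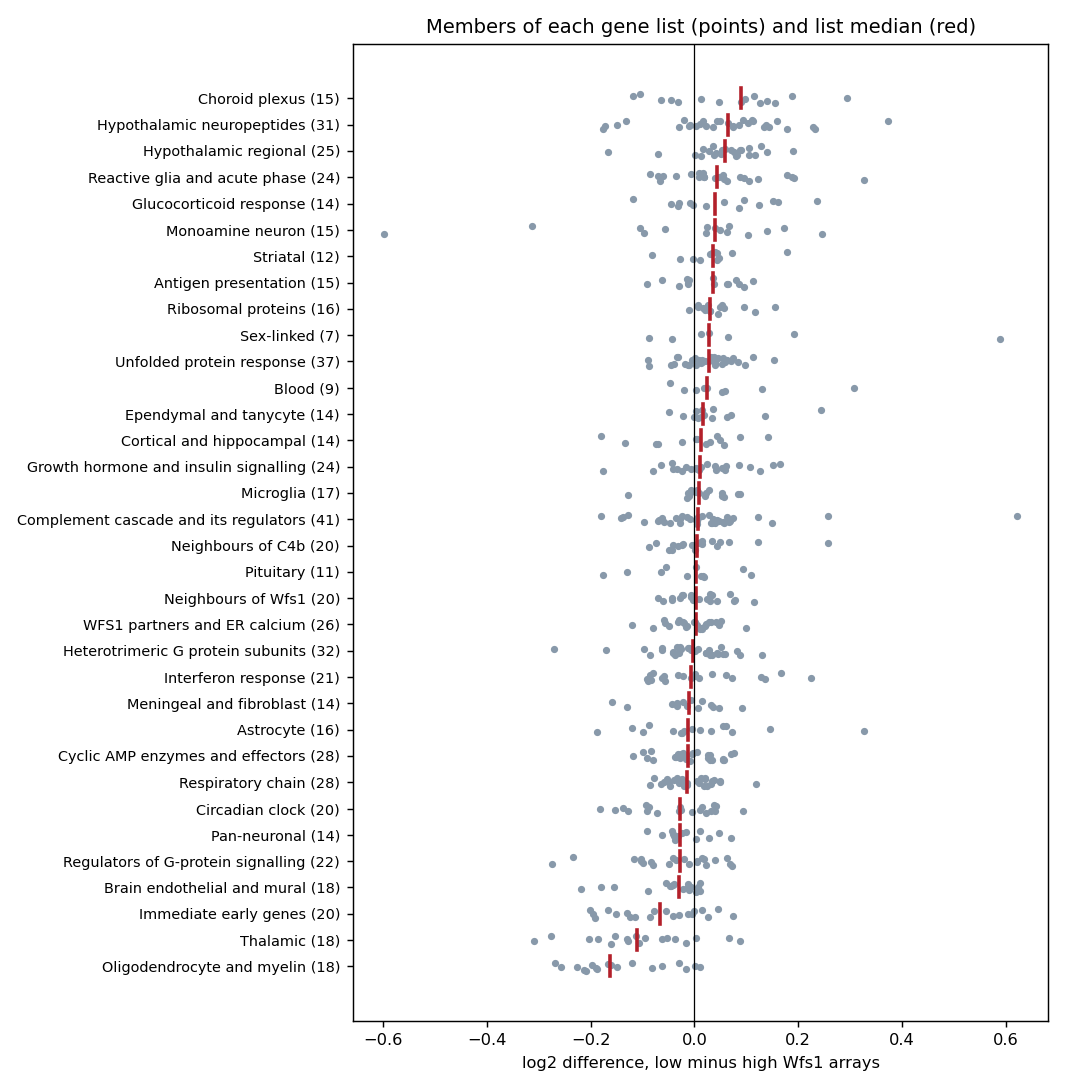
Median difference in log2 signal, low minus high Wfs1 arrays (horizontal), for each gene list, with the members' own differences as points. The oligodendrocyte and myelin list has a median of -0.16 and the thalamic list one of -0.11, and the median over all genes is -0.002.

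Hypothalamic neuropeptide genes were measured for 31 members. Of these, 23 (74.2%, against 48.5% of all genes) had a higher mean on the low arrays and 8 a lower one, with a median of 0.066. Without ko/WT 4 and wt/WT 3 the split was 19 to 12 and the median 0.016, and without ko/WT 4 alone the median was 0.041. At an unadjusted p under 0.05, Npy, Nmu, Crh and Vgf were higher and Pomc, Cck and Gnrh1 lower, and 0 passed the adjusted test. Npy, the orexigenic neuropeptide Y, ran from 9.32 to 9.92 on the low arrays, with a median of 9.62, and from 8.69 to 9.54 on the high arrays, with a median of 9.32. The difference was 0.37 with a standard error of 0.110 and a limma adjusted p of 0.787. Crh, which drives the pituitary-adrenal axis, differed by 0.23, and Nmu, neuromedin U, by 0.23. Pomc, the precursor of melanocortins, differed by -0.18. Avp differed by 0.16, Oxt by 0.14 and Hcrt (orexin) by -0.0098, each with a limma adjusted p of 0.999.

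The synthetic enzymes and transporters of monoamine neurons split 10 higher to 5 lower of 15, with a median of 0.040 and a mean of -0.016. At an unadjusted p under 0.05, 1 member was higher (Hdc) and 2 were lower, Slc6a4 among them. The count lower was 0 without ko/KO 1. Hdc, which makes histamine, differed by 0.25 (limma adjusted p = 0.787). Tph2, which makes serotonin in the raphe nuclei, differed by -0.60, the second in size after C4b, with a standard error of 0.286 and a limma adjusted p of 0.999. Its signal ran from 5.61 to 6.82 on the low arrays, with a median of 5.98, and from 5.75 to 8.06 on the high arrays, with a median of 6.53, so the sets overlapped and the high arrays spread more widely than the low ones. Slc6a4, the serotonin transporter, differed by -0.31, and by -0.20 without ko/WT 4. Pan-neuronal markers split 5 higher to 9 lower of 14, with a median of -0.028 and 0 at an unadjusted p under 0.05.

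Regulators of G-protein signalling, which shorten signalling by speeding GTP hydrolysis, were measured for 22 genes. Of these, 9 had a higher mean on the low arrays and 13 a lower one, with a median of -0.028, and 0 passed the adjusted test. Rgs4 and Rgs16 were lower at an unadjusted p under 0.05. Rgs16 ran from 9.31 to 9.66 on the low arrays, with a median of 9.53, and from 9.63 to 9.89 on the high arrays, with a median of 9.75, a difference of -0.23 (limma adjusted p = 0.394). The overlap came from a few values between 9.63 and 9.66. Rgs4 ran from 10.49 to 10.95 on the low arrays, with a median of 10.65, and from 10.71 to 11.15 on the high arrays, with a median of 10.94, a difference of -0.28 (limma adjusted p = 0.394).

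The subunits of heterotrimeric G proteins split evenly, with 16 higher and 16 lower of 32 and a median of -0.0025, which turned to 0.0053 with centred arrays. Gna13 was higher by 0.13 and Gng5 differed by -0.17, the 2 with an unadjusted p under 0.05. Enzymes and effectors of cyclic AMP split 11 higher to 17 lower of 28, with a median of -0.012 and 0 at an unadjusted p under 0.05. Clock genes split 8 to 12 of 20, with a median of -0.027, and Per3, Hlf and Rora were lower at an unadjusted p under 0.05. Immediate early genes split 4 to 16 of 20, with a median of -0.066 that was -0.041 without wt/KO 3, and Jun and Egr1 were lower at an unadjusted p under 0.05. Fos itself ran from 7.27 to 8.22 on the low arrays and from 7.37 to 8.31 on the high arrays.

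Genes tied to the known function of wolframin were followed in 2 lists, with 0 members past the adjusted test. Of 37 genes of the unfolded protein response, 27 (73.0%) had a higher mean on the low arrays, against 48.5% of all genes. The list median was 0.028 and was 0.013 without ko/WT 2 or without ko/KO 2, and 0 members had an unadjusted p under 0.05. The chaperone Hspa5 (BiP) differed by 0.07, Ddit3 (CHOP) by 0.04, Xbp1 by -0.03 and Atf6 by -0.01. The differences ran from -0.09 for Atf3 to 0.15 for Selenos. Leaving out wt/WT 1 brought 2 members to an unadjusted p under 0.05 and a higher mean, and 1 to a lower mean. Of 26 partners of wolframin and genes of endoplasmic reticulum calcium handling, 14 were higher and 12 lower, with a median of 0.0022 and 0 at an unadjusted p under 0.05. Cisd2, the gene of the second form of Wolfram syndrome, differed by 0.05, the calcium pump Atp2a2 by -0.05 and the ryanodine receptor Ryr3 by -0.08.

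**Figure D5:**
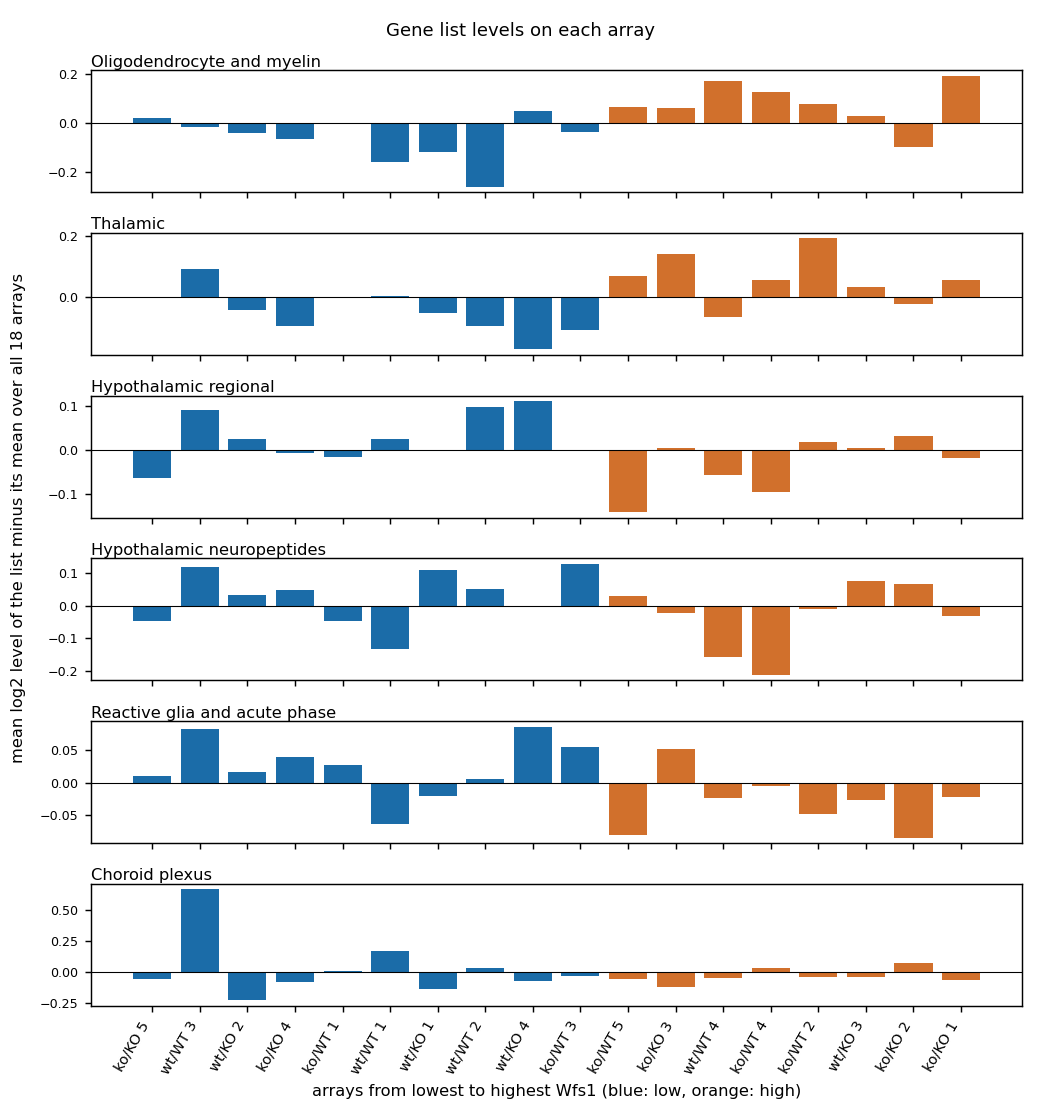
Mean log2 level of 6 gene lists on each array minus its mean over the 18 arrays (vertical), 1 bar per array, ordered from the lowest to the highest Wfs1 signal, with low arrays in blue and high arrays in orange. The oligodendrocyte and myelin list is lower on most low arrays, with overlap, and the choroid plexus list stands out on wt/WT 3.

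The other lists are given by their counts. Brain endothelial and mural genes split 4 higher to 14 lower of 18, with a median of -0.030 and 3 lower at an unadjusted p under 0.05 (Acta2, Vtn and Tek), a count that was 0 without ko/KO 1 and 4 without ko/KO 2. Meningeal and fibroblast genes split 6 to 8 of 14, with a median of -0.011 that turned to 0.0049 with quantile normalization. Ependymal and tanycyte genes split 11 to 3 of 14, with a median of 0.017 that was -7.9e-05 without ko/WT 4 and wt/WT 3, and Gpr50 was higher at an unadjusted p under 0.05. Choroid plexus genes split 10 to 5 of 15, with a median of 0.090 that was -0.0035 without ko/WT 4 and wt/WT 3. Of these, Clic6 and Folr1 were higher at an unadjusted p under 0.05. Pituitary genes split 6 to 5 of 11 and blood genes 7 to 2 of 9, with medians of 0.0040 and 0.025. Pomc was the 1 pituitary gene lower at an unadjusted p under 0.05. Respiratory chain genes split 13 to 15 of 28, with a median of -0.014, and glucocorticoid-response genes 8 to 6 of 14, with a median of 0.041. At an unadjusted p under 0.05, Uqcrfs1 of the respiratory chain was higher. Of the glucocorticoid-response genes, 2 were higher and 1 lower at that level. Growth hormone and insulin signalling genes split 15 to 9 of 24, with a median of 0.011, and 3 were higher and 1 lower at an unadjusted p under 0.05. Ribosomal protein genes split 15 to 1 of 16, with a median of 0.031. The ribosomal median was 0.0079 without ko/KO 1, whose ribosomal level deviated by -0.263 from the mean of all arrays, and leaving out 1 array gave as few as 9 higher and as many as 7 lower. The sex-linked list split 5 to 2 of 7, with a median of 0.029, and Xist, at 0.59, differed by 0.020 without ko/WT 4.

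The 12 genes highest on the low arrays by p were C4b, Heyl, Sytl4, Thbs2, Gfap, Cybrd1, Rsad2, Clic6, Nmu, C4a, Fbln5 and Hdc, all but C4b with a limma adjusted p above 0.05. Heyl, a transcriptional repressor downstream of Notch, differed by 0.24, running from 7.96 to 8.18 on the low arrays and from 7.70 to 8.07 on the high arrays. Sytl4 (granuphilin), which docks secretory granules, differed by 0.29, with 7.58 to 7.90 against 7.15 to 7.61. Fbln5, an elastic-fibre protein, differed by 0.37. On the lower side, Kctd21, a BTB-domain protein of the KCTD family, ran from 7.50 to 7.76 on the low arrays, with a median of 7.63, and from 7.66 to 8.27 on the high arrays, with a median of 8.02. Its difference was -0.35 with a standard error of 0.067 and a limma adjusted p of 0.309, and ko/KO 2, at 7.66, was the high array inside the low range. Without ko/KO 2 it was -0.40 with a limma adjusted p of 0.0166, so the genes called became 2. Cryab, the small heat-shock protein alpha-B crystallin, differed by -0.33, with 8.80 to 9.28 against 9.20 to 9.82. The rest of that side were Tra2a, Pigg, Serinc5, Lhpp, Sprn and Fv1, besides Mal, Cmtm5, Rgs16 and Rgs4.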

How the data were processed

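Per the labels' protocols, RNA of dissected hypothalami was extracted with Trizol and biotin-labelled. The values deposited by the authors, 1 per probeset and array, are on a log2 scale, as read from their range of 1.11 to 14.54. RMA and MAS5 are named in the submitters' processing notes without their roles. The annotation paired 21640 of 34760 probesets with 1 symbol, and the brightest probeset of a gene was kept, which left 19937 genes. The platform annotation may be old, and 21553 Entrez identifiers matched RefSeq (GRCm38.p6), with 0 symbols changed. The low and high Wfs1 sets were fitted with limma 3.58.1 (lmFit and eBayes, R 4.3.3), without covariates, adjusted by Benjamini-Hochberg over 19936 genes. The code was tested on simulated data. Named were C4b, the 12 genes per direction with the smallest p, and up to 2 members per list; Wbp1 and others were added after their values were seen. The sets, genes and 32 lists were chosen with earlier results of these data known, so lists are described by counts and medians. Alternatives covered probesets, normalization, dim genes, spread model, array weights, Wfs1 level, labels and each array. Scanner files and detection calls were not analysed here, so signal over background is not known.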

Additional observations from a re-analysis of the deposited data

Results flagged for a closer look

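Of 158 sets of array values examined for a single array far from the rest of its set, 10 (6.33%) held one, where chance flags about 1 in 20. Among the genes of the complement locus, C4a stood at 7.31 on ko/KO 2, above the other high arrays. Serinc5 stood at 9.78 on ko/KO 1, and Rps14 at 10.76 on the same array, both in the high set. Pde8a stood at 8.05 on ko/KO 2 and Xist at 5.93 on ko/WT 4, also in the high set. In the low set, Sprn stood at 9.51 on wt/WT 3, Acta2 at 8.56 on wt/KO 4, Alas2 at 9.08 on wt/KO 2, Sult1a1 at 7.81 on ko/KO 4 and Ghsr at 8.03 on wt/KO 1.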

How the results depend on the processing

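C4b kept its direction and was called by limma in every alternative run, with a difference of 0.55 to 0.67. The number of genes called was 1 in all but 2 settings. With array weights it was 2, the added gene being Kctd21 at -0.38 with an adjusted p of 0.0201. Leaving out 1 array at a time gave 1 to 2 genes, and the 2 came without ko/KO 2. The continuous Wfs1 level, either label as a covariate, quantile normalization, centring and the threshold of 0.1 gave 1 gene each. The genotype field is split evenly within each set, so as a covariate it could not change any difference. None of the 78 genes named by rule reversed the sign of its difference in any setting that held it. Lists were not tested and so had no called direction. No list median that is quoted above moved past the spread between arrays except without the dimmest 40% of genes, where fewer members remained: the choroid plexus median was -0.064, the blood median 0.31 and the sex-linked median 0.59. Centring each array turned the sign of the interferon and G protein subunit medians, to 0.0013 and 0.0053. Quantile normalization turned the same medians, to 0.0041 and 0.0048, and that of the meningeal list, to 0.0049. With the title ending as a covariate the pituitary, respiratory chain and wolframin partner medians turned, to -0.041, 0.011 and -0.0017. Without the dimmest 40% of genes the pituitary, G protein subunit and Wfs1 neighbour medians also turned, to -0.065, 0.0073 and -0.014. Leaving out 1 array turned the sign of the median in 14 of the 34 lists and neighbour sets, so medians near 0 have no settled direction. Without ko/WT 4 and wt/WT 3 the complement, ependymal and choroid plexus medians turned as given above, the pituitary median was -0.030, the cyclic AMP median 0.0026, and the medians of the neighbours of Wfs1 and of C4b -0.0031 and -0.010. No paired analysis was possible because the labels name no pairs of arrays. The titles carry numbers, but their meaning is not stated. With 10 and 8 arrays and a median standard error of 0.062, small differences were not detectable after adjustment over all genes. The fits without ko/WT 4 and wt/WT 3 together, over every deposited probeset, and of the lists with either label as a covariate or after centring were chosen after seeing the data.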
